A study of Mus musculus with 12 samples.

Results

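The loss of transketolase in regulatory T cells (Tregs) was examined by comparing the RNA of WT and knockout (cKO) Tregs from mice that drank vehicle, over every gene of the deposited table. The comparison takes 6 of the 12 libraries of the series, 3 per genotype, chosen by the sample labels. WT mice were Foxp3YFP-cre Tkt+/+ and cKO mice were Foxp3YFP-cre Tkt fl/fl, with both Tkt alleles floxed, so both groups express the recombinase and its yellow fluorescent protein from the Foxp3 locus, and deletion takes place in cells that switch on Foxp3. All were C57BL/6 mice aged 7 weeks, and vehicle was in the water from the mothers' pregnancy until the offspring were adult. CD4+CD25+YFP+ cells were sorted from spleen and lymph nodes. The remaining 6 libraries come from WT and cKO mice that drank DMαKG, dimethyl α-ketoglutarate, in place of vehicle; they show the same genotype difference with that agent, and they also enter the model from which the spread behind the vehicle tests was estimated.

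Tregs restrain other immune cells and depend on the transcription factor Foxp3. Transketolase moves carbon units between sugar phosphates in the non-oxidative branch of the pentose phosphate pathway, which links ribose and NADPH production to glycolysis. Activated, or effector, Tregs gain chemokine receptors, integrins and regulators shared with helper T cells, which take them into tissues, while resting Tregs stay in lymphoid organs.

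The 6 libraries held 1.76e+07 to 1.89e+07 summed estimated counts, with 12371 to 12529 genes reaching a count of 10 in each. Libraries also differed within a genotype. Replicate 4 of each genotype stood at positive values of the first principal component (20.2 in WT and 42.6 in cKO; the other 4 were negative), which held 36.9% of the variance. Immediate-early and AP-1 genes, which respond within minutes to stimulation or handling, summed to 15775, 13227 and 4320 CPM, the count relative to the library's TMM-scaled total, for WT replicates 2, 3 and 4 and to 11172, 22896 and 4099 CPM for the same cKO numbers. Mitosis genes summed to 415 CPM in cKO replicate 2 and to 1622 CPM in cKO replicate 4, against 910 to 1419 CPM in WT. Ddx3y, a Y-linked gene, was nearly absent from WT replicate 3 (0.0555 CPM; 109 to 224 CPM elsewhere). The sorted cells' own markers were present throughout: Foxp3, which overlaps Ccdc22 and is uncertain for that reason, stood at 366, 347 and 390 CPM in WT and 412, 412 and 332 CPM in cKO, and Cd4 at 736, 730 and 832 CPM in WT and 782, 786 and 717 CPM in cKO.

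**Figure D1:**
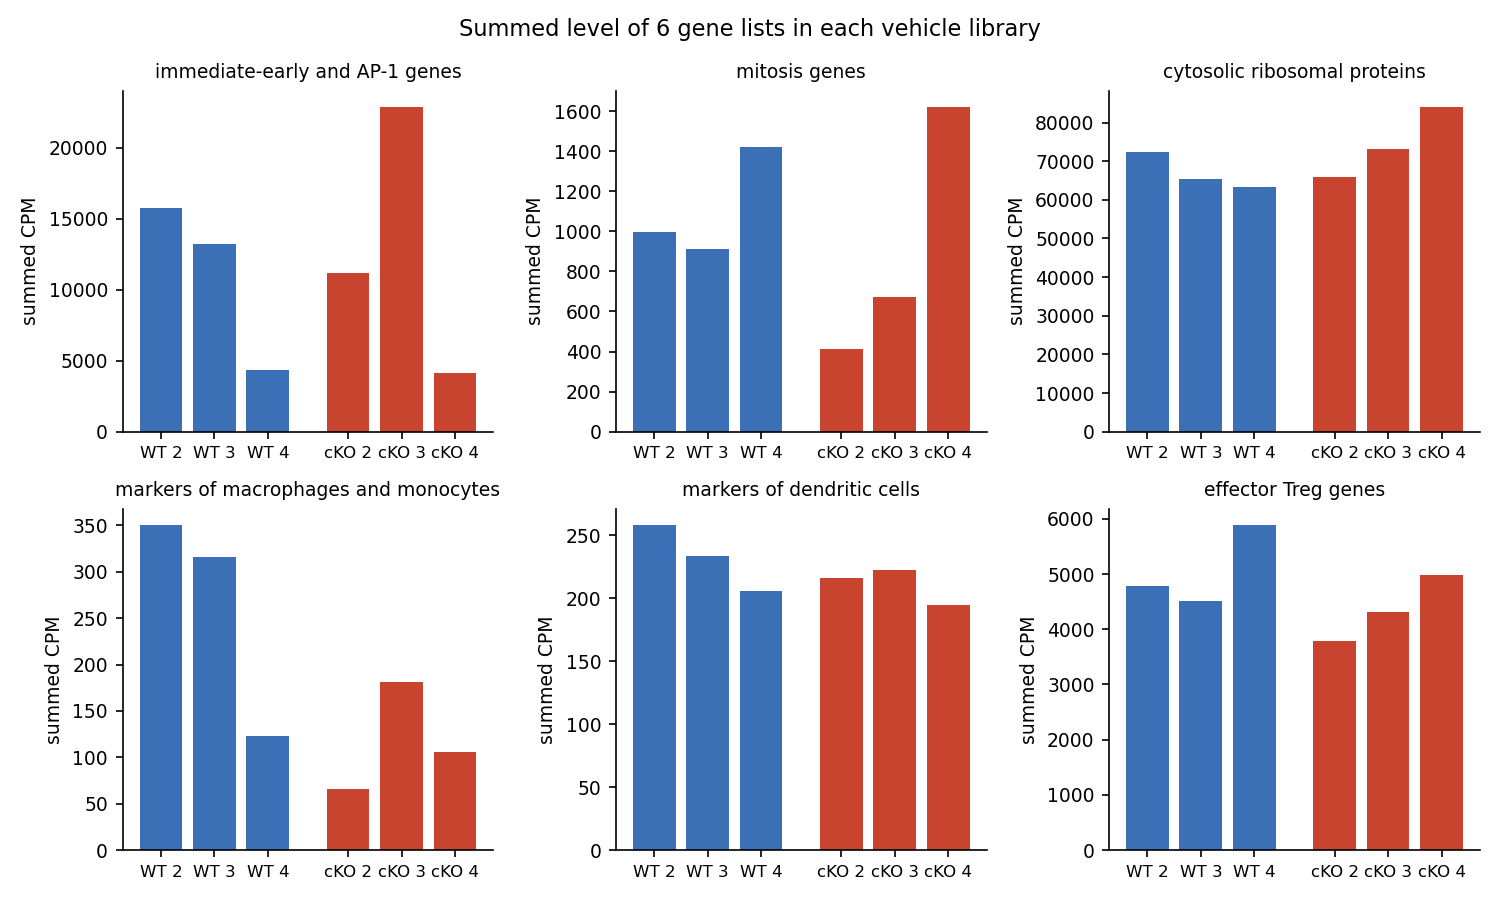
Summed CPM of 6 gene lists (linear axes from 0) in each vehicle library; blue bars are WT and red bars cKO replicates 2, 3 and 4. Replicate 4 of both genotypes has the lowest immediate-early sum, cKO replicate 2 the lowest mitosis sum, and WT replicates 2 and 3 the highest macrophage marker sums (350 and 316 CPM).

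Transketolase RNA itself was the check of the labels. Tkt (gene 21881, chr14:30549131-30574724, GRCm38) read 133, 102 and 111 CPM in the WT libraries (replicates 2, 3 and 4, the order used for every vehicle value) against 26.2, 37.2 and 41.8 CPM in the cKO libraries. Every cKO library lay below every WT library. Tkt fell by 1.72 on the log2 scale (SE 0.21, edgeR adjusted p = 0.0211), which left 30.4% of the WT level. The rest of the non-oxidative pentose phosphate list, which holds Tkt and 10 more tested genes, had no other member past the threshold; 5 of its 11 members were higher and 6 lower, with a median log2 fold change of -0.03. The 4 tested genes of the oxidative branch were all slightly higher (median 0.13), and Pgd, 6-phosphogluconate dehydrogenase, stood at 77.5, 66.3 and 80.0 CPM in WT and 72.4, 83.4 and 89.5 CPM in cKO, with overlapping groups.

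Apart from the deleted gene, 1 gene rose and 1 fell past an adjusted p of 0.05. Of 12903 genes tested 3 passed, or 0.0233%: 1 was higher in cKO (0.00775%) and 2 were lower (0.0155%). These calls rest on the spread estimated over all 12 libraries: fitted to the 6 vehicle libraries alone, edgeR passed 0 genes, with 1105 at an unadjusted p under 0.05 and Ncf1, Tkt and Nrn1 each at an adjusted p of 0.112. Ncf1 (gene 17969, chr5:134220053-134229628), the p47phox organizer of the superoxide-producing NADPH oxidase, read 22, 16.2 and 23.0 CPM in WT against 63.0, 52.0 and 53.9 CPM in cKO. The lowest cKO library was above the highest WT library. Ncf1 rose by 1.47 on the log2 scale (SE 0.14, adjusted p = 0.00239), from a mean of 20.4 ± 3.68 to 56.3 ± 5.87 CPM (SD, n = 3). Nrn1 (gene 68404, chr13:36725622-36734477), which encodes the membrane-anchored protein neuritin, was at 28.5, 40.6 and 33.5 CPM in WT and at 14.2, 13.7 and 12.7 CPM in cKO. The cKO libraries lay close together and below all WT libraries, and Nrn1 fell by 1.34 (SE 0.18, adjusted p = 0.0256). Of 23 alternative analyses Ncf1 passed in 22, all but the fit to the 6 vehicle libraries alone, Tkt in 15 and Nrn1 in 14.

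The promoters of Ncf1 and Tkt are shown because these genes moved in opposite directions with the smallest p; Nrn1 is named only. Each is the 300 bases around the gene's start in RefSeq on GRCm38.p6, read 5′ to 3′ on the gene's strand, with GC boxes (GGGCGG on either strand) in capitals. Ncf1 is on the minus strand at chr5:134229576-134229875 and Tkt on the plus strand at chr14:30548881-30549180.
Ncf1: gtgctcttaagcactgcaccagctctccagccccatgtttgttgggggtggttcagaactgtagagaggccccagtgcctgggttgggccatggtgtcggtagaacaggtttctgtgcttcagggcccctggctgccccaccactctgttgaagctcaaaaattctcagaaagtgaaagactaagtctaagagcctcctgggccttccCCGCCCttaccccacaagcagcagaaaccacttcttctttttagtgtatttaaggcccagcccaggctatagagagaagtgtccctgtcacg
Tkt: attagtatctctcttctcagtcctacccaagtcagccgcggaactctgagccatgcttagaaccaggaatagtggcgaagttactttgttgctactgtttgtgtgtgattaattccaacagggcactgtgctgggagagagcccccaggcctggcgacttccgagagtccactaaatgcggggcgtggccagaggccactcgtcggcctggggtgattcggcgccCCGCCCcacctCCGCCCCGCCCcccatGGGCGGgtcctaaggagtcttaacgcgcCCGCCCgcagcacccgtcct
The Ncf1 window holds 3 CG dinucleotides and 1 GC box, and the Tkt window holds 20 and 5, beside a median of 7 CG dinucleotides over 32851 promoter entries, of which 35.66% hold a GC box. Neither window matched AP-1 (TGANTCA, in 7.81% of entries), CRE (TGACGTCA, 1.79%), PU.1 (GAGGAAG, 13.63%), the core promoter box TATAAA (13.62%) or the upstream box CCAAT (37.41%) on either strand, which says only that these letters are not in these windows.

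**Figure D2:**
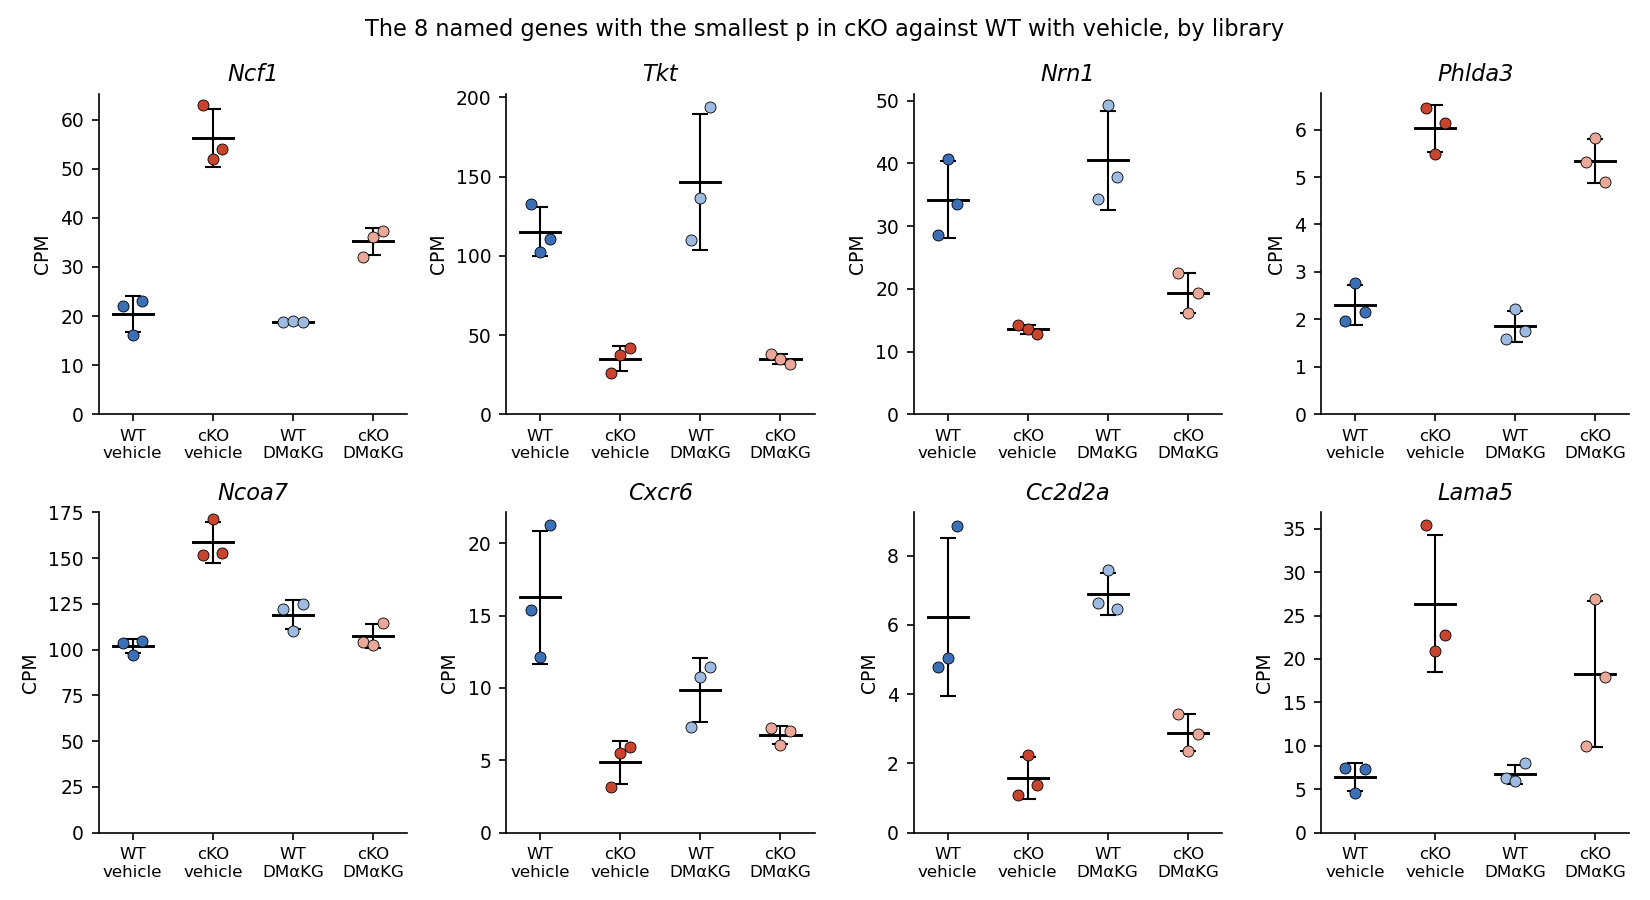
Level in CPM (linear axes from 0) of the 8 named genes with the smallest p in the vehicle comparison, in all 12 libraries; each point is 1 library, and bars are the mean ± SD of 3. Ncf1, Tkt and Nrn1 passed with vehicle. In all 8 genes the 3 cKO vehicle libraries lie apart from the 3 WT vehicle libraries. For the genes that did not pass, the naming rule required this.

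No other subunit of the oxidase passed with Ncf1 in edgeR. Of 10 tested NADPH oxidase genes 8 were higher and 2 lower in cKO (median log2 fold change 0.11), and Ncf1 was the member that passed. Cybb, the catalytic gp91phox subunit, stood at 55.8, 69.9 and 56.6 CPM in WT and 33.1, 36.1 and 21.5 CPM in cKO, with every cKO library lower (log2 fold change -1.01, adjusted p = 0.259). Cyba, the p22phox partner of Cybb, stood at 121, 116 and 137 CPM in WT and 142, 165 and 167 CPM in cKO (0.34, adjusted p = 0.369). By the Wald test of DESeq2 Cybb passed (adjusted p = 0.0232), as it did by voom with quality weights (adjusted p = 0.0371). Cyba passed in voom (adjusted p = 0.0243) but not in DESeq2 (adjusted p = 0.109). Macrophages also use Cybb, which was lower, and Cyba and Ncf1, which were higher. Macrophage markers are described beside the receptor genes, and their relation to these oxidase genes was not tested.

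Without adjustment 955 genes had a p under 0.05, 465 higher (3.6% of those tested) and 490 lower (3.8%). The 2 genotypes' libraries did not overlap in 1975 genes, or 15.3%. Over all tested genes 6653 were higher and 6249 lower, and the median log2 fold change was 0.01. The Wald test of DESeq2 passed 100 genes, voom with quality weights passed 245, and 87 passed in both, 46 higher and 41 lower, all in the same direction in edgeR and including the 3 that passed there. With edgeR's robust quasi-likelihood option, added after the counts had been seen, 8 genes passed: these 3 with Phlda3, Ncoa7, Cxcr6, Cc2d2a and 5830411N06Rik.

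Just short of the threshold, the genes with the smallest p were named where the groups did not overlap. Phlda3, a p53-induced inhibitor of AKT signalling, stood at 1.98, 2.78 and 2.15 CPM in WT and 6.45, 5.49 and 6.14 CPM in cKO (log2 change 1.39, adjusted p = 0.0596). Ncoa7, an oxidation-resistance domain protein, stood at 104, 97.3 and 105 CPM in WT and 152, 171 and 153 CPM in cKO (0.64, adjusted p = 0.0596). Lama5, a laminin chain of basement membranes, stood at 7.40, 4.55 and 7.29 CPM in WT and 35.4, 20.9 and 22.8 CPM in cKO (2.04, adjusted p = 0.0712). All cKO libraries were above all WT libraries in these 3 genes. The next higher genes were Gpr179, Tspan3, Kcnj15, Ahcyl2 and Ubxn11, with log2 fold changes of 1.55, 0.91, 1.25, 0.71 and 0.57 (adjusted p from 0.103 to 0.142).

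On the lower side, Cc2d2a, a gene of the base of the cilium, stood at 4.80, 5.05 and 8.86 CPM in WT and 1.08, 2.25 and 1.39 CPM in cKO (log2 change -1.98, adjusted p = 0.0598). Npas4, an activity-induced transcription factor, stood at 55.5, 80.5 and 63.5 CPM in WT and 31.5, 32.6 and 26.2 CPM in cKO (-1.14, adjusted p = 0.122). Cd55, which limits complement on the cell surface, stood at 58.1, 57.2 and 56.5 CPM in WT and 27.3, 32.5 and 35 CPM in cKO (-0.86, adjusted p = 0.157). The groups were apart in each, as the naming rule required. Zan, Arnt2 and BC049352 were the other genes of this kind (-3.06, -1.72 and -0.93, adjusted p = 0.123, 0.128 and 0.144); BC049352 overlaps Tmprss4 and is uncertain.

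**Figure D3:**
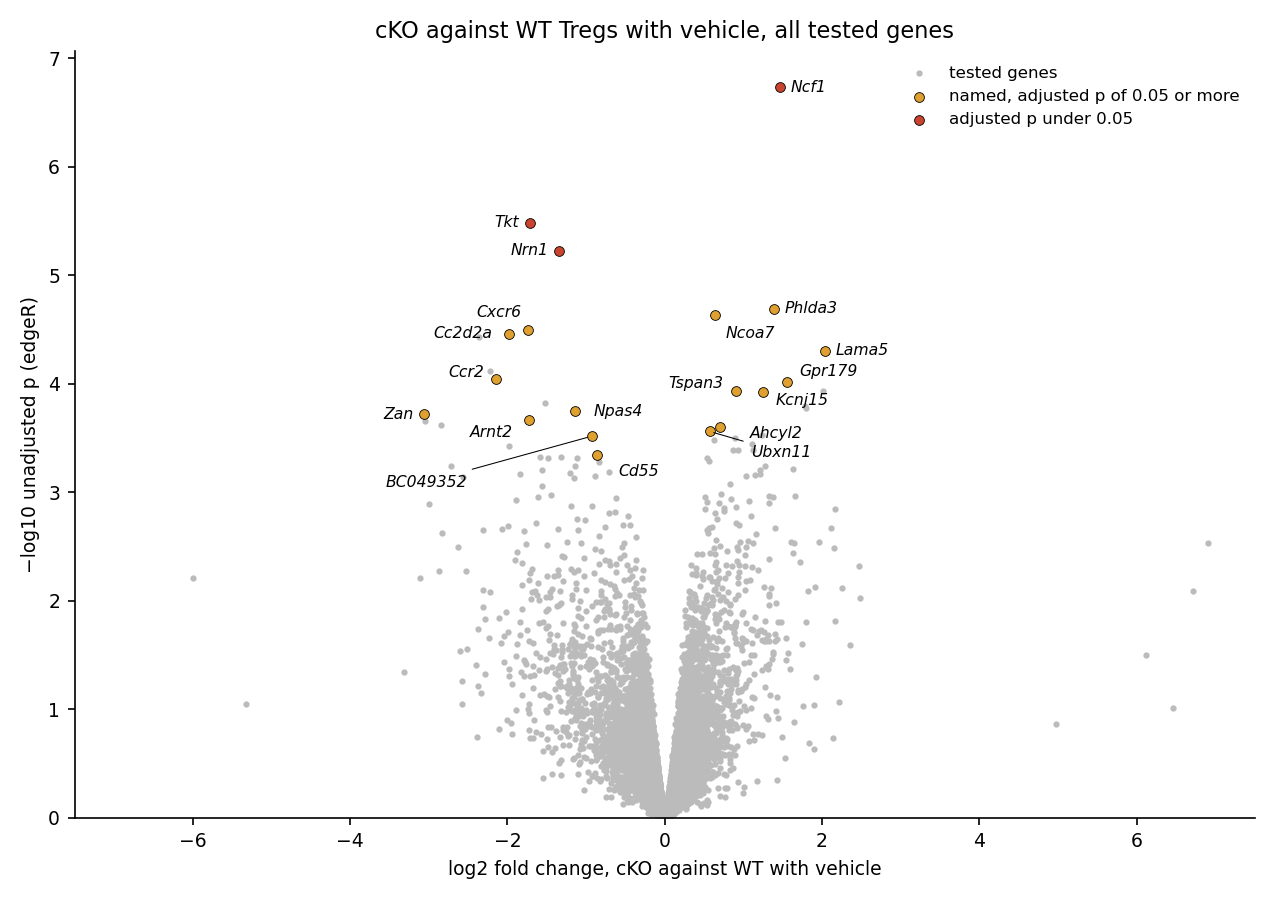
Log2 fold change of cKO against WT with vehicle (x axis) against -log10 of the unadjusted edgeR p (y axis) for the 12903 tested genes. Red points are the 3 genes that passed and orange points the 8 next genes in each direction that met the naming rule.

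Receptor and effector genes were mostly lower in cKO. Of 30 effector Treg genes 22 were lower and 8 higher (median log2 fold change -0.48), and none passed in edgeR. At an unadjusted p under 0.05, 15 were lower and 1 higher, beside 3.8% and 3.6% of all tested genes. By both DESeq2 and voom, Cxcr6, Ccr2, S100a4 and S100a11 of this list passed. Their adjusted p was 2.42e-06, 4.13e-06, 0.000919 and 0.0211 in DESeq2 and 0.0102, 0.00401, 0.0309 and 0.0267 in voom. Klrg1, also lower, passed in neither (adjusted p = 0.0833 and 0.0812). Of 19 chemokine receptors 14 were lower, also with a median of -0.48. Groups did not overlap in 7 of them, beside 15.3% of all tested genes in either direction. Leaving out 1 vehicle library moved the chemokine receptor median between -0.83 (without cKO replicate 3) and -0.35 (without WT replicate 4). Cxcr6, the receptor of CXCL16, is in both lists and stood at 15.4, 12.2 and 21.2 CPM in WT and 3.14, 5.49 and 5.93 CPM in cKO (log2 change -1.74, adjusted p = 0.0598); it overlaps Fyco1 and is uncertain. Ccr2, the receptor of CCL2, is in both lists as well and stood at 60.8, 47.4 and 95.8 CPM in WT and 6.72, 15.7 and 23.8 CPM in cKO (-2.14, adjusted p = 0.103). In both genes the highest cKO library was below the lowest WT library.

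S100a4, a calcium-binding protein of migrating cells, stood at 48.8, 41.2 and 54.6 CPM in WT and 12.4, 19.2 and 16.7 CPM in cKO (-1.58, adjusted p = 0.157). Klrg1, a receptor of terminally differentiated Tregs that is also in the Treg core list, stood at 38.5, 31.1 and 53.3 CPM in WT and 7.31, 16.9 and 6.70 CPM in cKO (-1.99, adjusted p = 0.274). Il10, the suppressive cytokine, stood at 34.0, 20.3 and 21.7 CPM in WT and 4.44, 18.5 and 4.13 CPM in cKO (-1.49, adjusted p = 0.53). The groups were apart in all 3, but in Il10 cKO replicate 3 was close to the WT libraries. Among adhesion genes 13 of 22 were lower (median -0.12). Itga4, the α4 integrin chain, overlaps Cerkl, is uncertain for that reason, and read 880, 1054 and 694 CPM in WT against 598, 610 and 340 CPM in cKO (-0.76, adjusted p = 0.444).

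Helper-type genes that Tregs can share were mostly lower too. The median was -0.56 for Th1 genes (11 of 16 lower), -0.48 for Th2 genes (8 of 11 lower) and -0.26 for Th17 genes (9 of 13 lower). No member passed in edgeR. Il1rl1, the IL-33 receptor of tissue Tregs, stood at 58.8, 67.1 and 64.7 CPM in WT and 27.5, 45.1 and 34.4 CPM in cKO (-0.83, adjusted p = 0.297). Batf ran the other way, at 64.2, 63.5 and 72.3 CPM in WT and 71.2, 89.5 and 98.7 CPM in cKO, with overlapping groups. Leaving out 1 vehicle library moved the Th1 median between -0.70 and -0.34 and the Th2 median between -0.77 and -0.23, and without both libraries numbered 4 the Th1 median was -0.17. With DMαKG the medians were -0.03 for Th1 genes (8 higher, 8 lower), -0.33 for Th2 genes (2 higher, 9 lower) and 0.37 for Th17 genes (10 higher, 3 lower).

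Markers of macrophages and monocytes were lower beside these genes, and their part in the result was not tested. Of 20 markers 19 were lower, with a median log2 fold change of -1.08 that was -1.75 without cKO replicate 3; none was at 0 in every library, and no member's groups were apart. They summed to 350, 316 and 123 CPM in WT and 65.5, 181 and 105 CPM in cKO, so WT replicate 4 lay within the cKO range. That library had the highest Ccr2, Cxcr6, S100a4 and Klrg1 of the 6, but the lowest Ccr3, Ifng and Itga4 among the WT libraries. These genes were picked with their values in view, and their relation to the macrophage markers was not tested. Csf1r, a defining macrophage receptor, stood at 46.5, 45.4 and 12.2 CPM in WT and 4.98, 28.2 and 10.7 CPM in cKO. Dendritic cell markers were lower in 10 of 12 (median -0.58), with sums of 206 to 258 CPM in WT and 195 to 223 CPM in cKO. Their median was -1.70 without WT replicate 4 and -1.39 without both libraries numbered 4. Genes were filtered anew in those fits, and in the latter 11 members were lower and 4 higher, so these medians are not over the same genes. Siglech, of plasmacytoid cells, stood at 21.4, 9.11 and 3.09 CPM in WT and 0.271, 2.42 and 1.5 CPM in cKO. Markers of plasma cells (5 of 7, median -0.88), erythroid cells (7 of 9, -0.61) and B cells (12 of 15, -0.42) were mostly lower as well. Leaving out 1 vehicle library moved these medians between -1.14 and -0.26, -0.99 and -0.31, and -1.06 and -0.0042. The plasma cell median is the value of Prdm1, which is also among the genes of the Treg, receptor, adhesion and helper lists. It therefore does not report on plasma cells alone. The summed levels of each list overlapped between the genotypes. Tfrc alone held 135 of 163, 109 of 124 and 109 of 124 CPM of the erythroid sum in WT. In cKO Tfrc held 111 of 115, 130 of 142 and 167 of 186 CPM, so the erythroid sums mostly follow this gene. The part of the plasma cell, erythroid and B cell lists in the result was not tested either. In bulk RNA, fewer cells of a type and less RNA per cell cannot be told apart.

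Genes of the Treg core list were mostly higher, but Foxp3, Il2ra, Ikzf2 and Ctla4 overlapped between the genotypes. Of 30 Treg core genes 22 were higher (median log2 fold change 0.20). At an unadjusted p under 0.05, 8 were higher and 1 lower, beside 3.6% and 3.8% of all tested genes. The lower gene, Klrg1, had the largest change of the list (-1.99). Plagl1, an imprinted zinc-finger gene, stood at 39.7, 28.2 and 38.1 CPM in WT and 53, 67.0 and 50.4 CPM in cKO (0.69, adjusted p = 0.223). Ecm1, a secreted matrix protein, stood at 129, 104 and 105 CPM in WT and 291, 266 and 150 CPM in cKO (1.06, adjusted p = 0.312). The groups were apart in both. Il2ra stood at 504, 475 and 622 CPM in WT and 467, 640 and 776 CPM in cKO. Log2 fold changes were 0.23 for Il2ra, 0.07 for Foxp3, -0.17 for Ikzf2 and -0.11 for Ctla4. With DMαKG the Treg core median was 0.07, with 17 genes higher and 13 lower.

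Genes of IL-2 and STAT5 signalling, which sustains Tregs, were higher in 15 of 19 cases (median 0.25). Groups were apart in 8 of them, beside 15.3% of all tested genes in either direction. Stat5a stood at 117, 114 and 111 CPM in WT and 139, 148 and 143 CPM in cKO (0.33, adjusted p = 0.434). Pim2, a STAT5-induced survival kinase, stood at 34.4, 36.1 and 36.6 CPM in WT and 49.5, 56.0 and 63.0 CPM in cKO (0.65, adjusted p = 0.312). Tnfrsf18, which encodes GITR and is in the TNF receptor superfamily list, stood at 167, 154 and 197 CPM in WT and 199, 243 and 228 CPM in cKO (0.37, adjusted p = 0.65). Of 16 tested members of that list 8 were higher and 8 lower (median -0.01). Leaving out 1 vehicle library kept the Treg core median between 0.17 and 0.31 and the STAT5 median between 0.14 and 0.31. With DMαKG the STAT5 median was 0.03, with 10 genes higher and 9 lower.

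**Figure D4:**
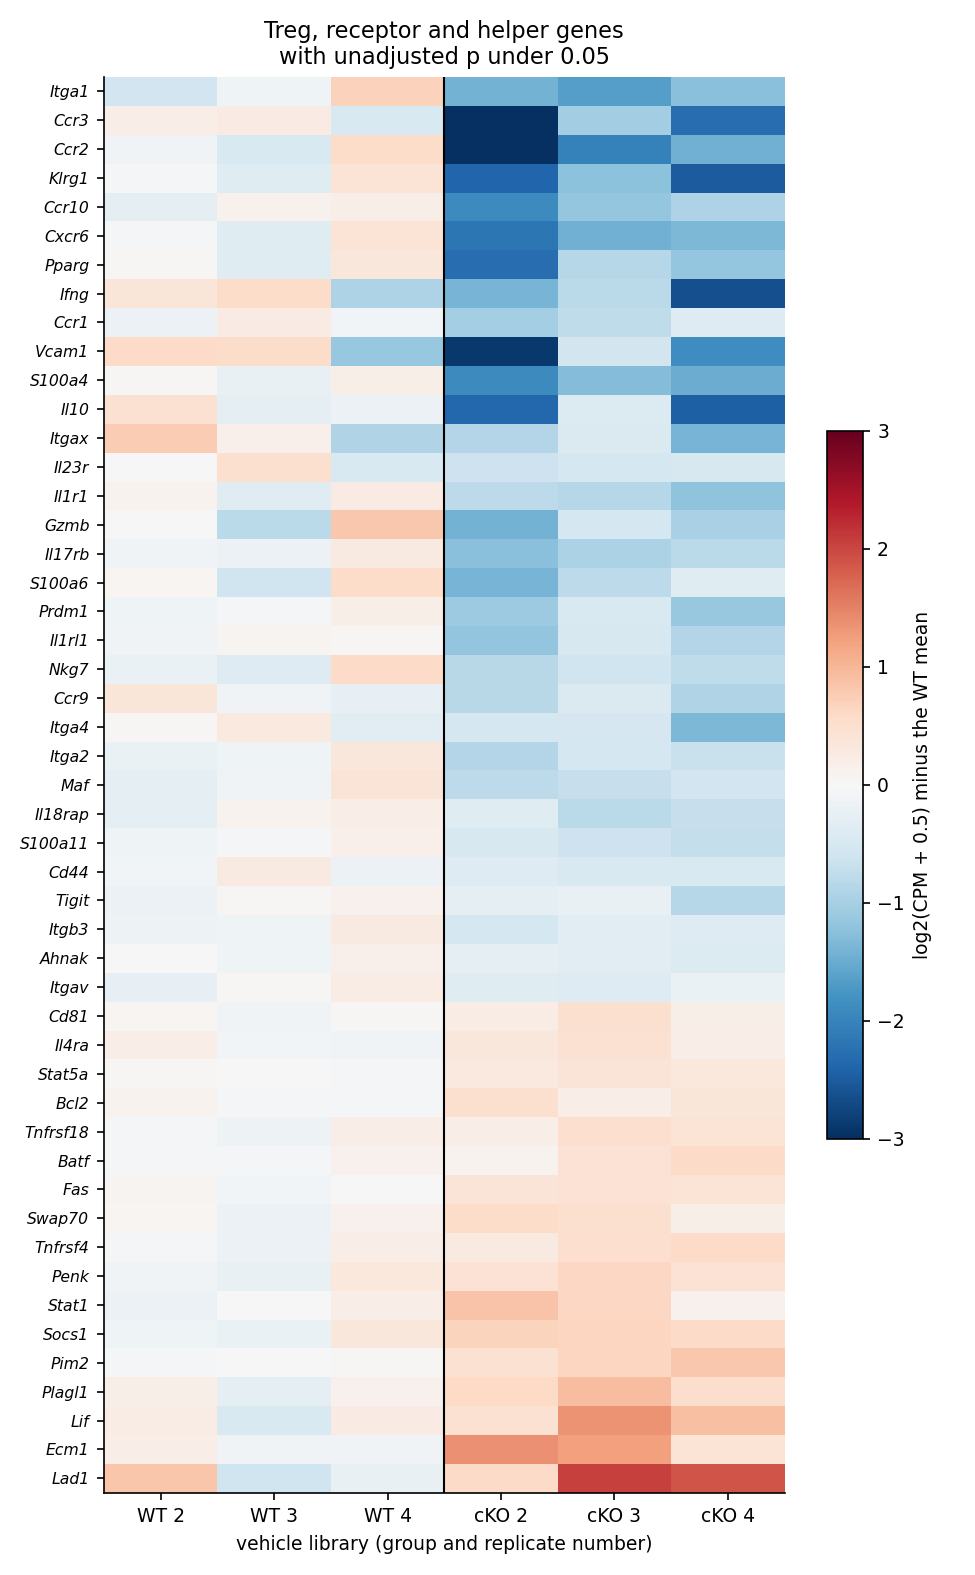
Each cell is log2(CPM + 0.5) of 1 vehicle library minus the WT mean, blue lower and red higher, for 49 genes of the Treg, receptor, adhesion and helper lists with an unadjusted p under 0.05 (32 lower, 17 higher); Cxcr6, Ccr10, Itga1, Itga4, Tigit and Tnfrsf4 overlap other genes and are uncertain. Columns are WT and cKO replicates 2, 3 and 4; the genes were selected by this same comparison, so the split by genotype is a description.

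Metabolic genes differed little. Of 26 glycolysis genes 21 were higher (median log2 fold change 0.16), and the median was 0.075 without cKO replicate 4 and 0.24 without cKO replicate 2. Eno2, the neuronal enolase isoform, stood at 5.14, 4.22 and 4.67 CPM in WT and 13.5, 9.88 and 7.22 CPM in cKO (1.12, adjusted p = 0.156). Ldhb, a lactate dehydrogenase subunit, stood at 58.9, 48.2 and 60.3 CPM in WT and 81.5, 84.7 and 82.0 CPM in cKO (0.57, adjusted p = 0.274), and both genes had groups apart. Nuclear genes of oxidative phosphorylation were higher in 69 of 72 cases with a median of 0.16, which was -0.01 without cKO replicate 4. Genes of the tricarboxylic acid cycle (median 0.06), glutamine and glutamate metabolism (0.06), antioxidant defence (0.05), TET and DNA methylation enzymes (0.04) and JmjC histone demethylases (0.01), which use or feed α-ketoglutarate or redox pools in part, lay near the median of all genes.

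Of 29 p53 targets 18 were higher. An unadjusted p under 0.05 was reached by 6, all higher, beside 3.6% of all tested genes that were higher at that p. Besides Phlda3, Bax, a pro-apoptotic protein, stood at 57.3, 53.2 and 54.5 CPM in WT and 64.5, 66.2 and 75.9 CPM in cKO (0.32, adjusted p = 0.428), and Fas, a death receptor, stood at 47.3, 42.4 and 44.6 CPM in WT and 58.3, 60.6 and 59.7 CPM in cKO (0.41, adjusted p = 0.342). Mitosis genes were lower in 39 of 40 cases with a median of -0.33, and this rested on single libraries: the median was 0.04 without cKO replicate 2 and -1.15 without cKO replicate 4. S phase genes moved likewise, with a median of -0.15 that was 0.08 and -0.58 without those libraries. Ribosomal protein genes were higher in 78 of 80 cases with a median of 0.15, which was 0.06 without cKO replicate 4 and 0.01 without both libraries numbered 4.

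**Figure D5:**
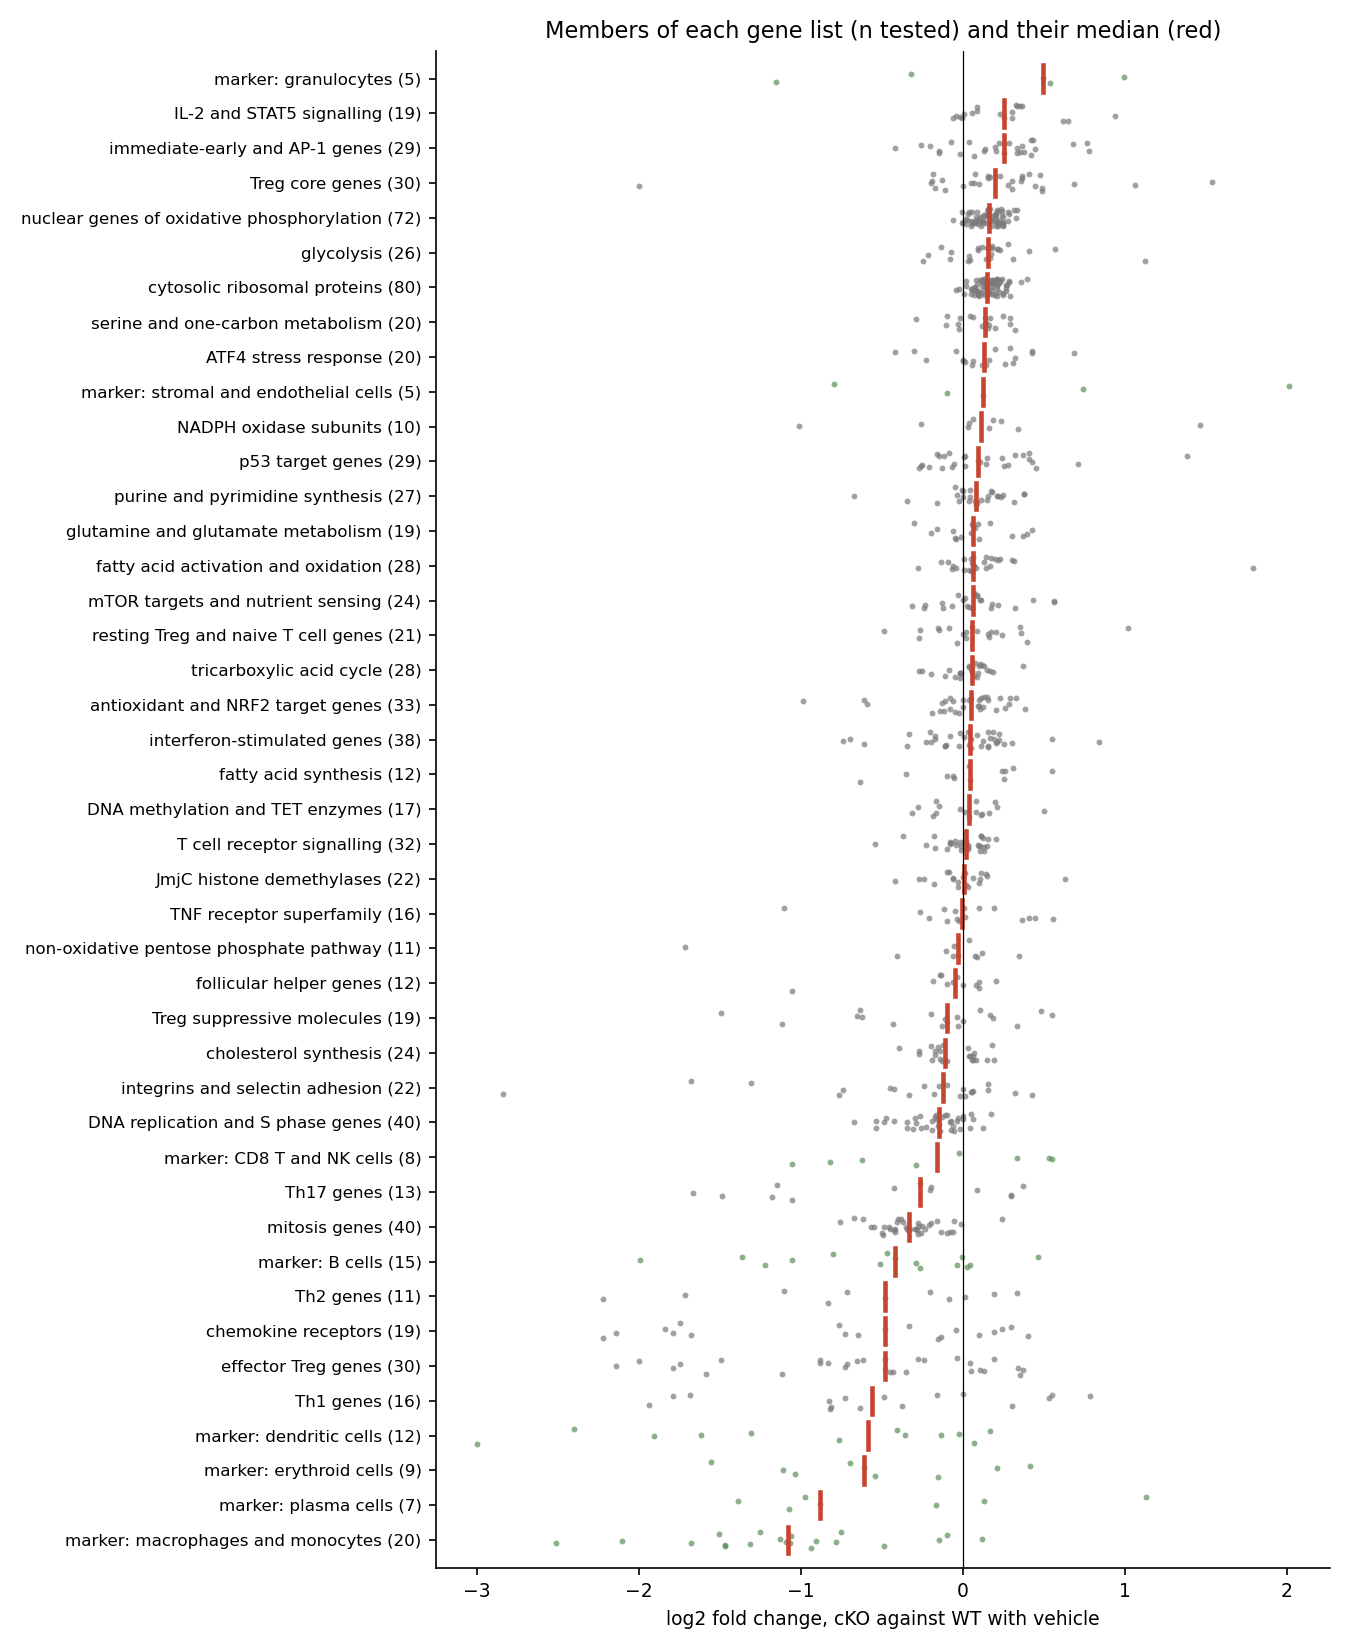
Log2 fold change of cKO against WT with vehicle for each tested member (points, green for marker lists of other cells) of every list with at least 5 tested members, with the list's median as a red bar. Medians run from -1.08 for macrophage and monocyte markers to 0.50 for granulocyte markers, of which 5 were tested.

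The mice given DMαKG offer the same genotype contrast in other mice, though in a model that shares its estimate of the spread with the vehicle comparison. There 9 genes passed (0.0698%), among them Tkt and Ncf1. Ddx3y, the Y-linked gene, was nearly absent from cKO replicates 1 and 3 (0.518 and 0.509 CPM, against 155 CPM in cKO replicate 2 and 140, 22.6 and 241 CPM in WT). With a Y-linked covariate 2 genes passed with DMαKG, 0 of them higher, so that the calls of Ncf1, Phlda3 and every other higher gene there were lost; 0 passed when replicate numbers were blocked. Ncf1 read 18.7, 18.9 and 18.8 CPM in WT against 32.1, 36.2 and 37.4 CPM in cKO (replicates 1, 2 and 3 of each), a rise of 0.90 (adjusted p = 0.0465) beside 1.47 with vehicle. Nrn1 stood at 34.3, 49.3 and 37.9 CPM in WT and 22.5, 16.2 and 19.3 CPM in cKO (-1.07, adjusted p = 0.0516). Phlda3 stood at 1.58, 2.21 and 1.76 CPM in WT and 5.31, 5.83 and 4.90 CPM in cKO, and passed there without the covariate (1.53, adjusted p = 0.0336). In all 3 genes the genotypes' DMαKG libraries were apart.

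Of the 955 genes with an unadjusted p under 0.05 with vehicle, 760 (79.6%) had the same direction with DMαKG, against 57.3% of all tested genes. Others were smaller or turned. Ncoa7 stood at 122, 110 and 125 CPM in WT and 104, 103 and 115 CPM in cKO with DMαKG (-0.15), against 0.64 with vehicle, and S100a4 had a log2 fold change of -0.12 against -1.58. Effector Treg genes had a median of 0.02 with DMαKG (16 higher, 14 lower) beside -0.48 with vehicle, chemokine receptors -0.29 beside -0.48, and macrophage markers 0.14 beside -1.08; the difference between these medians was not tested. Gene by gene, edgeR's test of the interaction passed 0 genes, with 477 at an unadjusted p under 0.05; DESeq2 and limma voom each passed 1, Ncoa7.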

How the data were processed

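RNA from 12 libraries was sequenced on an Illumina sequencer, with Trizol extraction and NEBNext Ultra libraries, per the labels' protocols and the design text. Tools listed in the submitters' processing notes, without their roles, are featureCounts 1.5.0-p3, HISAT2 2.0.5 and DESeq2 1.16.1, with the mm10 build; strand use in counting is not stated there, so overlapping genes are called uncertain. The authors deposited 1 table of 17955 genes with estimated counts, of which 36% of values were not whole and were rounded here before testing. The authors also deposited FPKM and TPM values, scaled by length and depth per the file headers, which no test used. Of the gene IDs 17901 matched RefSeq (GRCm38.p6).

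Groups and replicate numbers came from the labels, which state 3 mice per group. edgeR 4.0.16 in R 4.3.3 kept 12903 genes with its expression filter, scaled by TMM and fitted 1 quasi-likelihood model with a mean for each group to all 12 libraries, so the DMαKG libraries also set the spread used for vehicle (8 residual degrees of freedom; biological coefficient of variation 19.7%). P-values were adjusted by Benjamini-Hochberg over all tested genes, with a threshold of 0.05. Errors are SDs over 3 libraries. edgeR options were then compared in 8 combinations, with results in view: robust quasi-likelihood estimation gave 8 genes, as an earlier analysis of these data had, and the others 3. The fit as designed, without that option, is reported, and the robust fit is an alternative added after seeing the data, as is leaving out both vehicle libraries numbered 4.

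The comparison and the 47 gene lists were chosen with earlier results of these data known. Named genes are Tkt, all that passed, the 8 per direction with the next smallest p (protein coding, a group mean of at least 5 CPM, groups apart), up to 4 per list with an unadjusted p under 0.05 or else the most abundant member, fixed Treg genes and 3 markers per cell type; a few genes named this way are left out of the text. Alternatives were other scalings and filters, DESeq2 1.42.0, limma 3.58.1 voom, the 6 libraries alone, a replicate block, a Y-linked covariate and leaving out each library. Genes were filtered anew where libraries were left out, so the tested members of a list could differ. The fit was tested on simulated data. Same-numbered vehicle libraries are not said to be paired.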

Additional observations from a re-analysis of the deposited data

Results flagged for a closer look

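Ncoa7 differed between the treatments by a test of the interaction in DESeq2 and limma voom, though not in edgeR. The genotype difference with DMαKG minus that with vehicle was -0.79 on the log2 scale in edgeR (unadjusted p = 8.27e-05, adjusted p = 0.949), -0.78 in DESeq2 (adjusted p = 0.00105) and -0.87 in voom (adjusted p = 0.0464). Its level was higher in all 3 cKO libraries than in all 3 WT libraries with vehicle, and the groups overlapped with DMαKG.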

How the results depend on the processing

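The count of 3 genes with vehicle became 9 with no low-count filter, 100 with DESeq2, 245 with limma voom, 8 with robust estimation, 1 without both libraries numbered 4 and 0 in the 6 vehicle libraries alone. Leaving out 1 library gave 1 to 6. With the replicate number as a block it was 1 with vehicle and 0 with DMαKG. The numbers were not taken as pairs because they are not said to mark a shared litter or day. Deviations of same-numbered vehicle libraries correlated at -0.12, 0.14 and 0.47, which does not settle whether they share one. The DMαKG count of 9 became 26 with no filter, 143 with DESeq2, 237 with voom, 2 with the Y-linked covariate, 24 with robust estimation, 5 without both libraries numbered 4, and 0 to 17 leaving out 1. The interaction count of 0 became 1 with DESeq2 and with voom.

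Tkt kept its direction in every alternative run, but missed the threshold at -1.72 in the 6 libraries alone, -1.73 with the block and -1.89 without both libraries numbered 4; leaving out 1 library gave -1.86 to -1.54, and it missed without any WT vehicle library or cKO vehicle replicate 2 or 3 (adjusted p up to 0.123). Nrn1 missed in 9 alternatives, Ncf1 in the 6 libraries alone (adjusted p = 0.112). The causes were not tested.

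Sign changes were seen in genes far from the threshold. With the Y-linked covariate the log2 fold change was -0.00574 for Acly, 0.013 for Cd8b1, 0.023 for Ctla4, -0.0352 for Ddx3y, -0.046 for Foxp3 and 0.045 for Hba-a2. With voom it was 0.059 for Cd4, 0.025 for Ctla4, -0.29 for Ngp and -0.68 for S100a9. Without both libraries numbered 4 it was 0.098 for Cd4, -0.34 for Ngp, -0.031 for S100a9, 0.027 for Srebf2 and -0.015 for Tfrc, and with the block -0.11 for Tnfaip3. Leaving out 1 library gave -0.042 to 0.056 for Cd4, -0.78 to 0.047 for Cd79a, -0.15 to 0.15 for Cd8b1, -0.16 to 0.36 for Col1a1, -0.40 to 0.093 for Ctla4, -0.44 to 0.17 for Icos, -1.10 to 3.04 for Ltf, -0.32 to 0.089 for Lyz2, -1.42 to 0.025 for Ms4a1, -1.79 to 1.996 for Ngp, -0.31 to 0.018 for Pcna, -2.70 to 3.67 for S100a9 and -0.73 to 0.60 for Tnfaip3. With 3 libraries per group, a p that misses the threshold does not show that levels were alike.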

Other observations

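Around Tkt on chromosome 14, 27 tested genes lie within 1 Mb, 13 higher and 14 lower in cKO with vehicle, and none passed in edgeR. An unadjusted p under 0.05 was reached by 5 of the 27, beside 7.4% of all tested genes. Chosen after their values were seen, 3 adjacent genes were all lower: Il17rb, the IL-25 receptor, with a log2 fold change of -1.10, Chdh, choline dehydrogenase, with -1.07, and Cacna1d, a calcium channel subunit, with -1.25. Chdh and Cacna1d overlap each other and are uncertain. The genotypes' vehicle libraries were apart in each, and with DMαKG the values were -0.68, -0.92 and -1.07. With vehicle, Cacna1d passed in DESeq2 (adjusted p = 0.0447) and in voom (adjusted p = 0.0371), while Il17rb passed in neither (adjusted p = 0.206 and 0.0735).

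Fn1, which encodes fibronectin and stands in the stromal marker list, was at 1.30, 0.888 and 1.42 CPM in WT and 6.28, 5.49 and 2.89 CPM in cKO with vehicle (log2 fold change 2.02, edgeR adjusted p = 0.103), and passed with DMαKG (2.39, adjusted p = 0.0465), but not with the Y-linked covariate, under which 0 genes passed as higher there. Of the 5 stromal and endothelial markers tested 3 were higher and 2 lower with vehicle (median 0.12). Col1a2 stood at 1.47, 1.28 and 2.36 CPM in WT and 2.87, 2.31 and 3.40 CPM in cKO with vehicle (0.74, adjusted p = 0.605), Col1a1 stood at 1.19, 1.78 and 2.26 CPM in WT and 1.62, 1.48 and 2.58 CPM in cKO, and Col3a1 was at 0 in all 6 vehicle libraries. Pecam1, of endothelial cells and some leukocytes, stood at 173, 155 and 152 CPM in WT and 136, 170 and 143 CPM in cKO (-0.097), and Gm2023, which RefSeq lists with the synonym Ccl19, had a log2 fold change of -0.80 (unadjusted p = 0.0276, adjusted p = 0.586).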
